A study of Homo sapiens with 11 samples.

Results

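Histone genes were followed in RNA sequencing of clear-cell renal carcinoma cells, the human line 769-P, after siRNA against AKR1A1, an aldo-keto reductase that reduces aldehydes. The rule was made on names: symbols in the HIST1H to HIST4H, H1F, H2AF and H3F series (or their newer names), without pseudogenes and with a read in at least 1 of the 11 libraries. Of 88 rows with such a symbol, 1 was a pseudogene and 32 had no read in any library, which left 55 of the 17626 rows that had a read. These 55 were 54 histone genes and H1FX-AS1, an antisense RNA that the rule caught by its name and that is not counted as a histone gene below. By symbol, 43 of the 54 were replication-dependent (6 H1, 11 H2A, 11 H2B, 6 H3 and 9 H4 genes) and 11 were replication-independent (2 H1, 6 H2A and 3 H3 variants).

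The groups were si2, the second siRNA against AKR1A1 (n = 4 libraries), si1, the first one (n = 3), and siSCR, the control siRNA (n = 4). All cells were transfected for 48 h with a lipid reagent at a labelled siRNA concentration of 20 µM, and no siRNA sequence is among the sources used here. The labels give the genotype AKR1A1-/- to the si2 and si1 libraries and wild-type to the siSCR libraries, although the treatment is an siRNA in a single cell line. Nothing in the labels says that the libraries of a group came from separate cultures, so a p-value here reflects the variation among these libraries, which may be technical.

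Histones package DNA: H2A, H2B, H3 and H4 form the nucleosome core, and H1 binds the linker DNA between nucleosomes. Replication-dependent genes lie in clusters and are transcribed mainly in S phase, and their mRNA usually ends after a conserved stem-loop in place of a poly(A) tail. The stem-loop is bound by SLBP, which is needed for the processing and translation of these mRNAs. Some cluster genes also give longer, polyadenylated transcripts, a form described in cells that leave the cycle. Replication-independent variants, such as H2A.Z, H3.3 and macroH2A, mostly come from single genes with introns and polyadenylated mRNA and are made throughout the cell cycle. H1F0, H1FX, H2AFX and H3F3C, counted here among the variants, have no intron in the gene models used. The sources used here do not say whether the libraries were made from polyadenylated RNA, so the levels below may hold unequal parts of the forms of one gene.

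The stem-loop is shown first because it is the element that sets the mRNA end of the replication-dependent class apart. It was searched in GENCODE 29 transcripts (GRCh38) as a stem of 6 base pairs that begins with GG and ends with CC, G-U pairs allowed, around a loop of 4 bases that begins with TTT. It was present in 18 of 43 replication-dependent genes (41.9%), in 1 of 11 replication-independent genes, H2AFX, and in 264 of all 58676 genes (0.450%). Below, the capitals mark stem and loop, and 5 transcript bases stand on each side.
HIST1H2AC: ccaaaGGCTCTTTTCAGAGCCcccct
HIST1H2BG: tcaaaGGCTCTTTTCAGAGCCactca
HIST1H2BD: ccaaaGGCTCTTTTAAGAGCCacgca
HIST1H2BC: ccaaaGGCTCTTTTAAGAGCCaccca
HIST1H2AE: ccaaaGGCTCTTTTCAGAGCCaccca
HIST1H4H: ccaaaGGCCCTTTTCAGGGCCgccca
H2AFX: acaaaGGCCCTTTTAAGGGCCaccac
The annotated transcript of HIST1H2AC ran 1114 bases past the stem-loop, that of HIST1H2BG 1059 bases and that of H2AFX 1044 bases. For HIST1H2BD 1 coding transcript ended 39 bases after it, and a longer one, of 789 bases, did not contain it. HIST1H2AE ended 51 bases after it and HIST1H2BC 116 bases after it in the transcript that holds it. No match was found in HIST1H4C, HIST1H1C, HIST1H1D, HIST1H1E or HIST2H2AC, whose annotated models of 435, 642, 666, 754 and 390 exon bases may stop short of it.

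Promoters are shown because many H2A and H2B genes are divergent neighbours that share one. The windows are those of RefSeq on GRCh38.p14, from 250 bases before to 50 bases after the start, and 49 of the 54 histone genes had one. Searched on both strands, CCAAT was found in 34 of 40 windows of replication-dependent genes, in 6 of 9 of replication-independent genes and in 34.6% of all 35116 windows. TATAAA was found in 26 of 40, in 4 of 9 and in 11.5% of all. ATTTGCAT, the octamer known from H2B promoters, was found in 17 of 40, in 1 of 9 and in 1.77% of all, and the 17 were 8 H2A and 9 H2B genes. Matches of different motifs may overlap, and a match describes the letters only. Divergent pairs share most of their windows, so 1 site can count for both genes of a pair, and the matches are not independent. In the windows below the capitals mark these 3 motifs on either strand.
HIST1H2AC, chr6:26123922-26124221, plus strand: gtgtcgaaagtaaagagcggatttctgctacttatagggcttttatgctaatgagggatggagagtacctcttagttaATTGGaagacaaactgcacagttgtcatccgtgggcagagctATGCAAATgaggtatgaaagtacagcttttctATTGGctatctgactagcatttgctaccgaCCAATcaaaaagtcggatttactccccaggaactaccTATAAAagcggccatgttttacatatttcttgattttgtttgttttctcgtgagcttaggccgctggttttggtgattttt
HIST1H2AE, chr6:26216671-26216970, plus strand: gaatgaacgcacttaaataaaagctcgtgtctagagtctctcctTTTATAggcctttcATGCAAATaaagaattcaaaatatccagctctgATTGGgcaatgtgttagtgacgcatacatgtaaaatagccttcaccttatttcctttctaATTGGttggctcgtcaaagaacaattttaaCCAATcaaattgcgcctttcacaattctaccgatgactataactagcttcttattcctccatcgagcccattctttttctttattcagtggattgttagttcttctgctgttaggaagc
HIST1H2BD, chr6:26157871-26158170, plus strand: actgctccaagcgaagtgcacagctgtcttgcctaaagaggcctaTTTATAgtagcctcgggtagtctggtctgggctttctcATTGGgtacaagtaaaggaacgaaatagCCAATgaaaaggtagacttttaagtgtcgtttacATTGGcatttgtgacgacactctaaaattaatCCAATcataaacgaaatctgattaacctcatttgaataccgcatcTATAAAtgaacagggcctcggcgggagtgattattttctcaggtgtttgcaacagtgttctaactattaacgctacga
HIST2H2AC, chr1:149886668-149886967, plus strand: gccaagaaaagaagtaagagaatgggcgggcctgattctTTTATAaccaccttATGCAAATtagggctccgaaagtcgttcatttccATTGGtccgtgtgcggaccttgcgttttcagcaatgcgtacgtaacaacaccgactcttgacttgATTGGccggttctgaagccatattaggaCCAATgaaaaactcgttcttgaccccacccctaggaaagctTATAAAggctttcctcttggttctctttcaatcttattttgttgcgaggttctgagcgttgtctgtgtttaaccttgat
The first window shares 255 bases with that of HIST1H2BC, read from the minus strand, and their starts lie 246 bases apart. The second shares 268 bases with that of HIST1H2BG, with starts 233 bases apart, and the last shares 265 bases with that of HIST2H2BE. HIST1H2BD had no octamer match in this window. In all, 7 such pairs of a minus-strand and a plus-strand gene were found among the members.

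A few genes held most histone reads. Over all libraries 121478 reads fell on histone genes, and HIST1H4C, a gene for core histone H4, took 30.3% of them and 76.2% of those on replication-dependent genes. H3F3B, a gene for H3.3, took 21.0%, H2AFZ 16.2%, H2AFV 11.6%, H2AFY 6.82% and HIST1H1C 5.95%. Replication-dependent H2A, H2B and H3 genes together were rare, with 1.30%, 0.949% and 0.0881% of histone reads. So a summed level of replication-dependent histones mostly gives HIST1H4C, and the class is described below by means over genes on the log2 scale.

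Per length, as mean normalized count per 1000 exon bases of the GENCODE model, HIST1H4C stood first in every group, at 5809 ± 2013 in si2, 6089 ± 557 in si1 and 10219 ± 3262 in siSCR (SD). HIST1H1C, a linker histone gene, had 772 ± 193 in si2, 727 ± 109.9 in si1 and 1413 ± 507 in siSCR. H2AFZ had 782 ± 260.5 in si2, 498 ± 159 in si1 and 903 ± 355 in siSCR. In siSCR the order went on with H3F3B (408 ± 90.6), H2AFV (371 ± 146), H1FX (249 ± 54.3) and HIST2H2AC (203 ± 78.5). This order depends on the lengths used, which join the exons of all annotated transcripts of a gene. H2AFZ has 2303 exon bases but a longest coding transcript of 979, and H3F3B has 6134 and 2705. The models of HIST1H1C (642 bases) and HIST2H2AC (390 bases) may stop short, as said above. In siSCR the ranges of mean ± SD of HIST1H1C and H2AFZ overlapped, and so did those of H3F3B and H2AFV. Both genes of a pair were measured in the same libraries, so this overlap cannot decide whether they differ. With these lengths, HIST1H1C lay above H2AFZ within every siSCR library, while the order of H3F3B and H2AFV changed between siSCR libraries. HIST1H2AC changed its place between groups, with 18.6 ± 2.02 in si2, 59.3 ± 10.9 in si1 and 20.2 ± 18.1 in siSCR per 1000 bases.

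**Figure D1:**
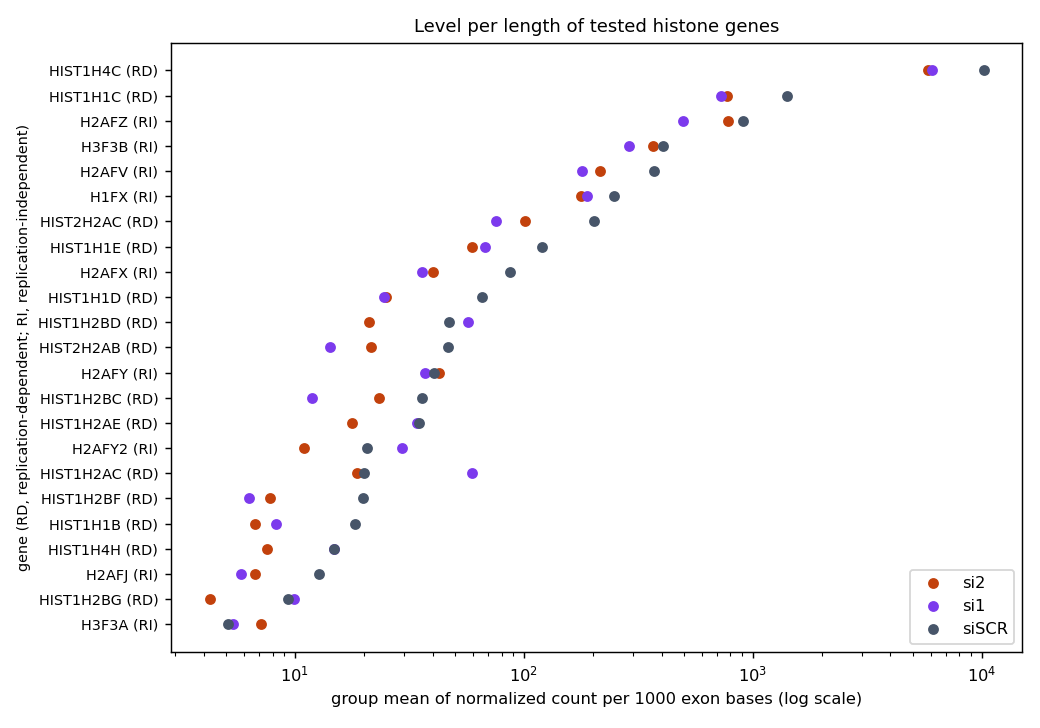
Group means of the normalized count per 1000 exon bases (x axis, log scale) for the 23 histone genes tested in some comparison (y axis), in si2, si1 and siSCR. HIST1H4C stands at 5809 in si2, 6089 in si1 and 10219 in siSCR, and the point of HIST1H2AC in si1, at 59.3, lies apart from its points in si2 (18.6) and siSCR (20.2).

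Libraries had 2108546 to 5939514 reads on genes. Normalized AKR1A1 counts were 56.6, 32.1, 48.3 and 46.1 in si2, 81.7, 23.6 and 45.1 in si1, and 390.4, 256, 200.1 and 242 in siSCR, with no overlap of either siRNA with siSCR. AKR1A1 fell by 2.53 ± 0.24 (SE) on the log2 scale in si2 (limma adjusted p = 0.00218) and fell by 2.54 ± 0.42 in si1 (adjusted p = 0.0357). Without siSCR 1, described next, it fell by 2.34 ± 0.21 in si2 and fell by 2.36 ± 0.43 in si1, both called. Of 9 markers fixed for the renal line, 7 were tested (PAX8, VIM and keratins KRT8 and KRT18 among them) and CA9, a hypoxia target usual in clear-cell carcinoma, was at 0 in all 11 libraries. Of 9 markers of leukocytes, endothelium and fibroblasts, CD68 and COL1A1 passed the filter, and CD3E, PECAM1, CDH5 and LUM were at 0 in all libraries. Their summed level was 68.3 to 148 normalized counts in si2, 49.6 to 98.4 in si1 and 73.3 to 148 in siSCR. COL1A1, a collagen gene, rose by 1.38 ± 0.32 on the log2 scale in si2 relative to si1 (adjusted p = 0.0429; not called with the mitochondrial share as covariate), with 58.4, 56.2, 34.7 and 53.4 in si2, 12.3, 30.5 and 16.5 in si1 and 35.3, 28.8, 47.1 and 16.3 in siSCR. The other fibroblast markers DCN and COL3A1 were at 1.77 or below and the leukocyte marker PTPRC likewise.

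The library siSCR 1 stood apart from the other siSCR libraries, so fold changes and counts of calls against siSCR are given with and without it. Histone genes took 0.264% to 0.347% of reads in si2, 0.209% to 0.297% in si1, 0.237% in siSCR 1 and 0.497% to 0.538% in siSCR 2 to 4. Mitochondrially encoded transcripts took 4.59% to 5.12% of reads in si2, 6.57% to 11.1% in si1, 12.1% in siSCR 1 and 3.46% to 4.46% in siSCR 2 to 4. The 11.1% was that of si1 1, which came near siSCR 1 in this share and stayed in the fits without siSCR 1. Those fits drop such a library from the control side only, so differences of si1 from siSCR may be enlarged in them. Counts of calls are also given from a fit with the mitochondrial share as a covariate where it moves them. In si2 against siSCR the share was 12.1% in siSCR 1 and at most 5.12% in the other libraries. There the covariate mostly marks siSCR 1, so that fit and the fit without siSCR 1 are not independent of each other. In si2 against si1 the shares of the groups did not overlap, so the covariate and the siRNA cannot be told apart. The log2 fold change of AKR1A1 in that comparison was 0.015 without the covariate and 1.27 with it.

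The mean log2 level, log2(normalized count + 1), over the 14 replication-dependent genes that passed the filter was 4.50, 5.37, 4.38 and 4.67 in si2, 4.67, 5.24 and 5.11 in si1, and 5.27, 5.91, 5.69 and 5.80 in siSCR. All si1 libraries and 3 of 4 si2 libraries lay below the lowest siSCR library, and si2 2 alone lay above siSCR 1. HIST1H1B, HIST1H2BF and HIST2H2AB passed the filter mainly through siSCR 2 to 4, which favours higher means in those libraries. Over the 9 replication-independent genes it was 7.50, 7.49, 7.78 and 7.87 in si2, 7.25, 7.73 and 7.64 in si1, and 7.43, 8.20, 8.29 and 8.28 in siSCR. Here siSCR 1 was among the siRNA libraries and siSCR 2 to 4 were above all of them. Replication-dependent minus replication-independent, the level was -2.93 ± 0.56 in si2, -2.54 ± 0.04 in si1 and -2.38 ± 0.19 in siSCR (SD; -2.45 ± 0.16 in siSCR 2 to 4), and no test was made on this score. Within si2, si2 2 was at -2.12 and the others between -3.40 and -3.0. In bulk RNA, fewer cells in S phase and less histone mRNA per S phase cell cannot be told apart.

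**Figure D2:**
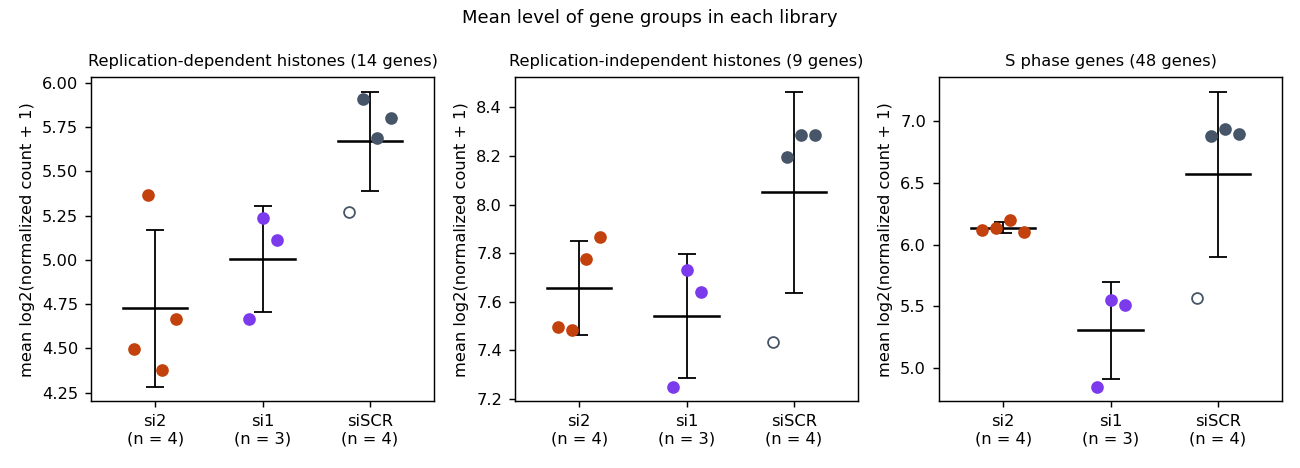
Mean log2(normalized count + 1) per library over 14 replication-dependent histone genes, 9 replication-independent histone genes and 48 S phase genes (y axes), by group (x axis). Points are libraries, the open point is siSCR 1, and the line and bar are mean and SD. Replication-dependent means in si2 (4.38 to 5.37) and si1 (4.67 to 5.24) overlap, while S phase means do not (6.10 to 6.2 in si2, 4.85 to 5.55 in si1).

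With si2 against siSCR, the histone genes that were measured had mostly lower values, but none passed the test over all genes. Of 22 tested, 0 were called (limma, adjusted p under 0.05) beside 3.12% of all 10249 genes tested, and 11 had an unadjusted p under 0.05, as had 19.6% of all genes. The 13 replication-dependent genes had a median log2 fold change of -0.95 with 12 below 0, the 9 replication-independent genes a median of -0.49 with 7 below 0, and all genes tested a median of -0.01. HIST1H2AE passed the filter only through siSCR, and HIST1H1B, HIST1H2BF and HIST2H2AB mainly so. Genes kept in this way shift the median and the count toward falls, and untested genes are not in them. With voom on recovered reads 0 were called, beside 4.52% of all genes. Without siSCR 1, 8 were called, all lower in si2, beside 6.68% of all genes called lower in si2 in that fit, and the medians were -1.12 for replication-dependent and -0.56 for replication-independent genes. With the mitochondrial share as covariate 8 were called, all lower in si2, beside 5.81% of all genes called lower. These were the same 8 genes as without siSCR 1. Without si2 2 only HIST1H1E was called, beside 0.97% of all genes.

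With si1 against siSCR, most measured histone genes also had lower values and none passed the test, while HIST1H2AC was higher in every si1 library than in any siSCR library. Of 23 tested, 0 were called beside 1.72% of all 10517 genes, and 8 had an unadjusted p under 0.05, as had 23.9% of all genes. The 14 replication-dependent genes had a median log2 fold change of -0.84 with 10 below 0, the 9 replication-independent genes -0.47 with 7 below 0, and all genes tested -0.03. With voom on recovered reads 1 was called, HIST1H2AC, beside 5.53% of all genes. Without siSCR 1, 9 were called lower in si1 and HIST1H2AC higher, beside 6.52% of all genes called lower and 7.01% called higher in that fit, and the medians were -1.09 for replication-dependent and -0.65 for replication-independent genes. Both siRNA comparisons share the siSCR libraries, so likeness between them is not independent.

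With si2 against si1, a fit that uses no siSCR library, 3 of 20 histone genes tested were called, beside 6.74% of all 10448 genes. HIST1H2AC, HIST1H2BD and HIST1H2BG fell in si2 relative to si1, beside 3.02% of all genes called lower in si2. All 3 are replication-dependent, and the 11 replication-dependent genes tested had a median log2 fold change of -0.33 with 7 below 0. HIST1H2BG and HIST1H2AE passed the filter only through si1, which favours lower values in si2 among the genes tested. The 9 replication-independent genes had a median of 0.27 with 2 below 0, and all genes tested 0.04. HIST1H2AC was called whichever library was left out, but with all 11 libraries in 1 fit 0 of the 3 were called (0 with a replicate block). The fit of all 11 libraries called 761 of 10760 genes in this comparison, and the fit with the block 6 of 10448. With the mitochondrial share as covariate HIST1H2AC alone was called, beside 1.6% of all genes. This share did not overlap between si2 and si1, so that fit cannot separate it from the siRNA. Without si2 1, si2 4 or si1 3 HIST1H2AC alone was called, without si2 2, si2 3 or si1 1 HIST1H2BD was called too, and without si1 2 all 3 and HIST1H1D were called. These fits called 120 to 803 of all genes, most of them without si1 2.

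**Figure D3:**
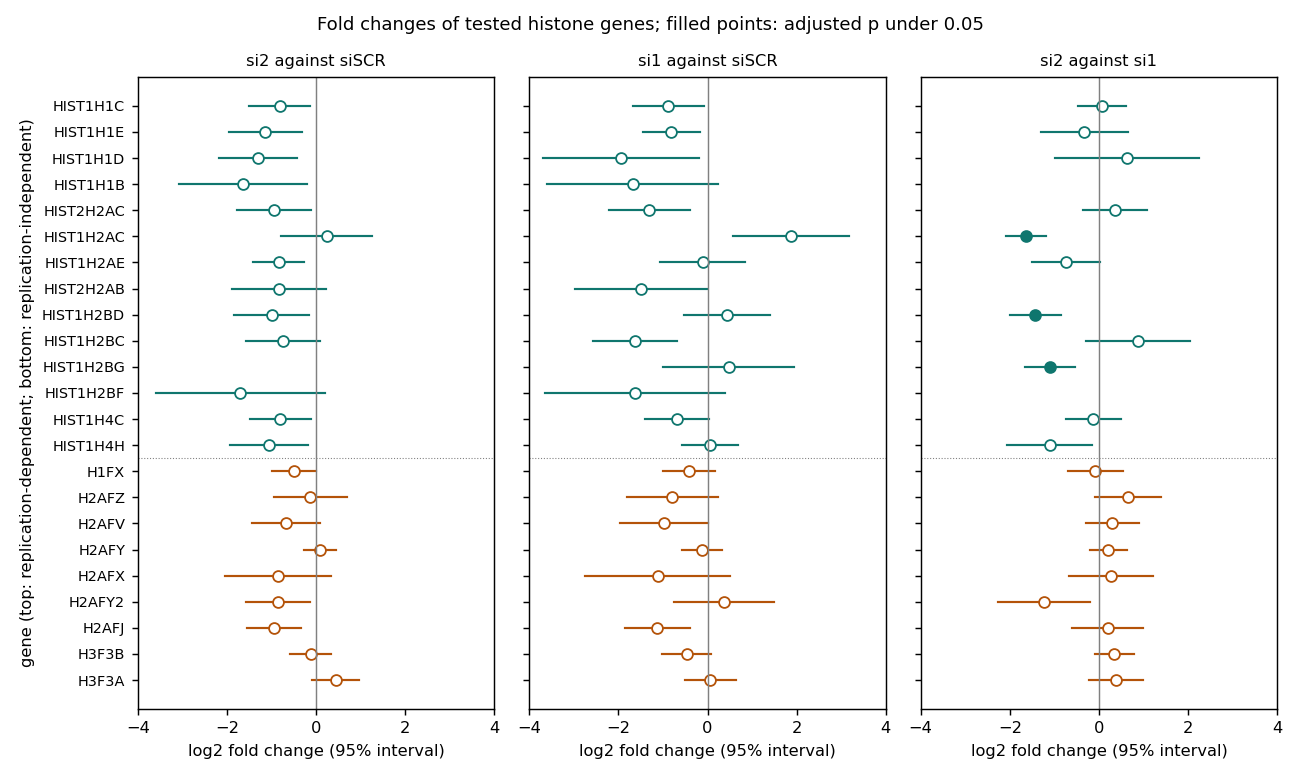
Log2 fold change with its 95% interval (x axes) of each tested histone gene (y axis), for si2 against siSCR, si1 against siSCR and si2 against si1. Filled points passed an adjusted p of 0.05, which were HIST1H2AC (-1.63), HIST1H2BD (-1.43) and HIST1H2BG (-1.09) in si2 against si1.

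H4 was represented by HIST1H4C (chr6:26103876-26104310), with 1854, 3774, 1987 and 2493 normalized counts in si2, 2396, 2669.9 and 2879 in si1, and 2413, 5601, 4577 and 5191 in siSCR. The si2 and si1 libraries all lay below siSCR 2 to 4, while siSCR 1 lay among them. Its log2 fold change was -0.80 ± 0.31 in si2 (adjusted p = 0.188) and -0.68 ± 0.31 in si1 (adjusted p = 0.226). Without siSCR 1 it fell by 1.07 ± 0.25 in si2 and fell by 0.95 ± 0.17 in si1, both called. HIST1H4H, another H4 gene, had 15.9, 28.9, 6.30 and 14.0 in si2, 36.0, 31.9 and 28.6 in si1, and 39.5, 41.7, 20.9 and 26.5 in siSCR. Its si1 libraries lay inside the siSCR range and 3 of 4 si2 libraries below it, with log2 fold changes of -1.06 ± 0.39 in si2 (adjusted p = 0.174) and 0.05 ± 0.27 in si1 (adjusted p = 0.929), or -0.94 ± 0.43 in si2 and 0.16 ± 0.27 in si1 without siSCR 1. HIST1H4I had at most 7.08 in any library, and H4 genes are near copies of each other in their coding parts, so reads may be split or dropped between them.

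Replication-dependent linker H1 genes that are described here were lower in every si2 and si1 library than in siSCR 2 to 4, apart from HIST1H1B. HIST1H1C (chr6:26055787-26056428), for H1.2, had 393, 662, 411 and 518 in si2, 471, 394 and 535 in si1, and 452, 1221, 946 and 1010.3 in siSCR. No si2 or si1 library reached siSCR 2 to 4, and siSCR 1 again lay among the siRNA libraries. Its log2 fold change was -0.81 ± 0.31 in si2 (adjusted p = 0.182) and -0.88 ± 0.35 in si1 (adjusted p = 0.178), and without siSCR 1 it fell by 1.12 ± 0.21 in si2 and fell by 1.18 ± 0.20 in si1, both called.
HIST1H1E, for H1.4, had 31.0, 85.1, 22.1 and 40.9 in si2, 36.9, 54.1 and 61.6 in si1, and 60.4, 114, 95.5 and 90.6 in siSCR. Both siRNA groups overlapped siSCR 1 only, with log2 fold changes of -1.14 ± 0.37 in si2 (adjusted p = 0.130) and -0.81 ± 0.28 in si1 (adjusted p = 0.140). Without siSCR 1 it was -1.32 ± 0.39 in si2 and fell by 0.99 ± 0.24 in si1, called in si1 only, and without si2 2 it was called in si2. HIST1H1D, for H1.3, had 18.6, 16.1, 8.40 and 23.3 in si2, 4.39, 40.2 and 4.51 in si1, and 18.5, 58.8, 57.6 and 40.7 in siSCR. One si1 library, si1 2, came close to the lowest of siSCR 2 to 4, and the si1 libraries spread more than those of the other groups. HIST1H1B had 0, 10.4, 5.25 and 2.59 in si2, 0, 13.9 and 3.01 in si1, and 5.88, 12.8, 11.8 and 19.4 in siSCR, at a depth that leaves the groups overlapping.

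**Figure D4:**
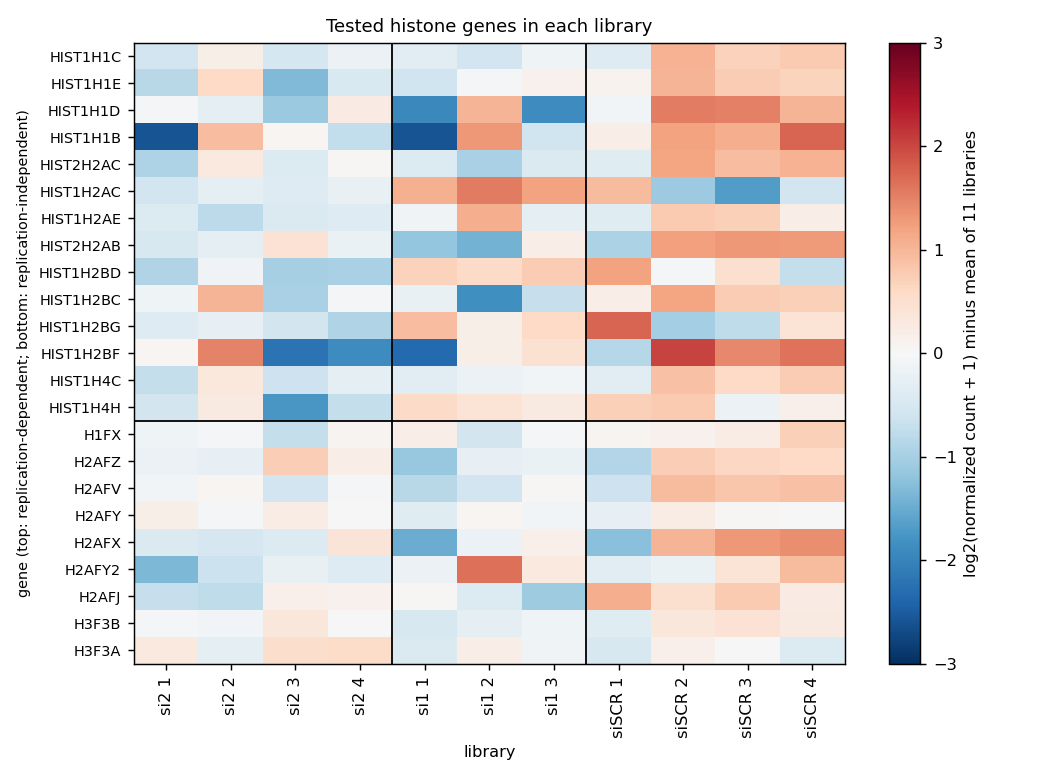
Log2(normalized count + 1) of each tested histone gene (y axis) in each library (x axis), minus the mean of the gene over 11 libraries, by colour. The columns siSCR 2 to 4 are high for most genes, siSCR 1 is not, and HIST1H2AC, HIST1H2BD and HIST1H2BG are high in si1 and in siSCR 1.

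Among H2A and H2B genes, HIST1H2AC (chr6:26124145-26139116) differed most between the siRNAs. It had 26.5, 32.9, 30.5 and 34.2 in si2, 84.3, 119 and 93.2 in si1, and 78.1, 18.2, 11.8 and 26.5 in siSCR. Every si1 library lay above every si2 and siSCR library, si2 was tight, and siSCR 1 lay far above siSCR 2 to 4. HIST1H2AC fell by 1.63 ± 0.19 on the log2 scale in si2 relative to si1 (limma adjusted p = 0.00708), and with the mitochondrial share as covariate it fell by 1.98 and was still called. Its log2 fold change was 0.24 ± 0.46 in si2 against siSCR (adjusted p = 0.825) and 1.87 ± 0.56 in si1 against siSCR (adjusted p = 0.112). Without siSCR 1 it was 0.76 ± 0.25 in si2, not called, and rose by 2.39 ± 0.31 in si1, called.

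Its divergent neighbour HIST1H2BC (chr6:26114873-26123926), which shares the promoter window shown above, had 15.9, 36.1, 8.40 and 17.1 in si2, 14.9, 4.16 and 10.5 in si1, and 20.1, 40.6, 30.1 and 29.5 in siSCR. Every si1 library lay below every siSCR library, which is the opposite order to HIST1H2AC. The log2 fold change was -0.74 ± 0.37 in si2 (adjusted p = 0.313) and -1.62 ± 0.40 in si1 (adjusted p = 0.0747), and without siSCR 1 it was -0.91 ± 0.39 in si2, not called, and fell by 1.79 ± 0.42 in si1, called. The log2 ratio of HIST1H2AC to HIST1H2BC, with 1 added to each count, was 0.82 ± 0.77 in si2, 3.33 ± 1.09 in si1 and -0.16 ± 1.46 in siSCR (SD). It ranged from 2.42 to 4.54 in si1, above every library of si2 (at most 1.74) and siSCR (at most 1.90, in siSCR 1).

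HIST1H2BG (chr6:26215159-26216692) had 7.08, 8.03, 6.30 and 4.66 in si2, 19.3, 11.1 and 15.0 in si1, and 34.4, 4.27, 5.23 and 13.2 in siSCR. All si2 libraries lay below all si1 libraries, and siSCR 1 was the highest of all. It fell by 1.09 ± 0.25 on the log2 scale in si2 relative to si1 (adjusted p = 0.0375), but with the mitochondrial share as covariate the value was -0.50 and was not called. HIST1H2BG passed the filter of this comparison only through si1, as no si2 value reached 10. Its call and its separation are thus those of a gene kept for its level in si1. Its log2 fold change against siSCR in si1 was 0.48 ± 0.63 (adjusted p = 0.668), or 1.02 ± 0.41 without siSCR 1, not called, and it did not pass the filter in si2 against siSCR.
Its divergent neighbour HIST1H2AE (chr6:26216975-26217483) had 9.73, 7.22, 9.45 and 9.85 in si2, 12.3, 29.1 and 10.5 in si1, and 10.1, 23.5, 22.2 and 15.3 in siSCR. Every si2 library lay just below every si1 and siSCR library. No si2 value reached 10, so HIST1H2AE passed the filter only through si1 or siSCR, also in the fit without siSCR 1. Its log2 fold change was -0.84 ± 0.25 in si2 against siSCR (adjusted p = 0.108) and -0.74 ± 0.33 in si2 against si1 (adjusted p = 0.209), and without siSCR 1 it fell by 1.07 ± 0.19 in si2 against siSCR and was called. At these levels depth limits precision, since 1 read is worth 0.518 to 1.5 normalized counts, depending on the library.

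HIST1H2BD (chr6:26158146-26171349) had 15.9, 28.1, 14.7 and 15.0 in si2, 50.1, 45.8 and 52.6 in si1, and 72.2, 29.9, 43.2 and 18.3 in siSCR. The si2 and si1 libraries did not overlap, and siSCR overlapped both, with siSCR 1 highest and 3 of 4 si2 libraries below every siSCR library. It fell by 1.43 ± 0.25 on the log2 scale in si2 relative to si1 (adjusted p = 0.0199), but with the mitochondrial share as covariate the value was -1.29 and was not called. Against siSCR the log2 fold changes were -0.99 ± 0.38 in si2 (adjusted p = 0.185) and 0.44 ± 0.42 in si1 (adjusted p = 0.539), or -0.67 ± 0.31 in si2 and 0.76 ± 0.31 in si1 without siSCR 1, not called. All 3 genes that were called between the siRNAs were thus also highest, among the siSCR libraries, in siSCR 1. Without these 3 genes, the mean log2 level of the other 11 replication-dependent genes was 4.91 ± 0.51 in si2, 4.89 ± 0.40 in si1 and 5.99 ± 0.60 in siSCR (SD), or 6.29 ± 0.16 in siSCR 2 to 4.

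**Figure D5:**
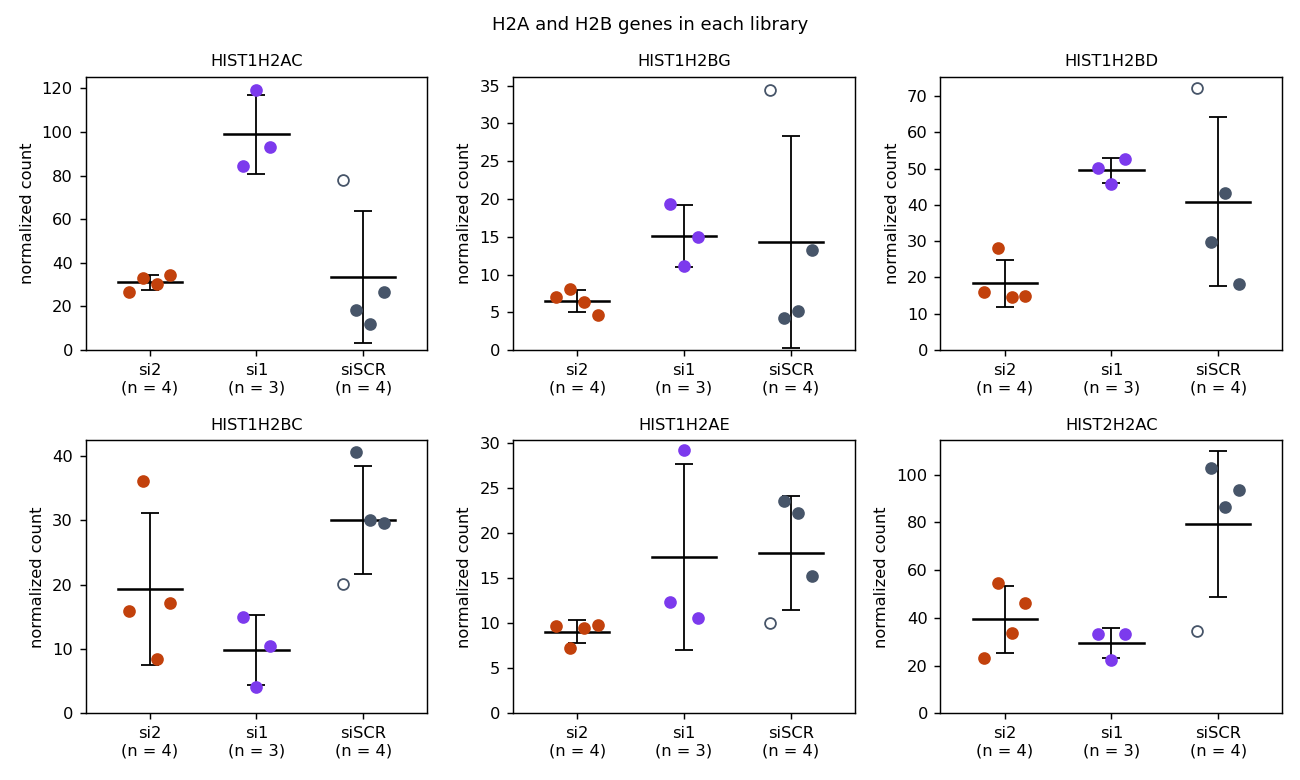
Normalized counts (y axes) of 6 H2A and H2B genes per library, by group (x axis), with mean and SD; the open point is siSCR 1. HIST1H2AC lies at 84.3 to 119 in si1, against 26.5 to 34.2 in si2, while HIST1H2BC, which shares its promoter window, lies at 4.16 to 14.9 in si1 and 8.40 to 36.1 in si2.

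HIST2H2AC (chr1:149886975-149887364), an H2A gene of the smaller cluster, had 23.0, 54.6, 33.6 and 46.1 in si2, 33.4, 22.2 and 33.1 in si1, and 34.4, 103, 86.3 and 93.7 in siSCR. All si1 libraries lay below all siSCR libraries, and si2 overlapped siSCR 1 only. The log2 fold change of HIST2H2AC was -0.95 ± 0.37 in si2 (adjusted p = 0.194) and -1.30 ± 0.39 in si1 (adjusted p = 0.112), and without siSCR 1 it fell by 1.31 ± 0.27 in si2 and fell by 1.66 ± 0.22 in si1, both called. HIST2H2AB, beside it, had 6.19, 7.22, 12.6 and 7.77 in si2, 3.51, 2.78 and 10.5 in si1, and 4.20, 22.4, 23.5 and 23.4 in siSCR. Again siSCR 2 to 4 lay above every siRNA library and siSCR 1 did not. HIST1H2BF had 8.84, 25.7, 1.05 and 1.55 in si2, 0.878, 9.71 and 12 in si1, and 4.20, 37.4, 24.9 and 28.5 in siSCR, and si2 1, si2 2, si1 2 and si1 3 lay inside the siSCR range, which siSCR 1 widens at its low end.

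Replication-dependent H3 genes had few reads, and none of the 6 passed the filter in any comparison. HIST1H3E was the highest, with 4.42, 5.62, 7.35 and 2.07 in si2, 7.03, 38.9 and 3.01 in si1, and 6.72, 2.14, 1.31 and 3.06 in siSCR. A single library, si1 2, holds its high value. HIST1H3A reached at most 3.20 and HIST1H3C at most 2.62, with 0 in all si1 libraries for both, and a difference was not detectable at this depth. In all, 29 replication-dependent and 2 replication-independent genes (H1F0 and H3F3C) were tested in no comparison, with 1 to 84 reads each over all libraries, and 16 members had under 10. The near-identical copies HIST2H2AA3 and HIST2H2AA4, and HIST2H3A and HIST2H3C, were among the rows at 0, where reads that map to both copies may not have been counted. Among further rows at 0 were the germline genes H1FNT, H1FOO, H2AFB1, HIST1H2AA, HIST1H2BA and HIST3H3.

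Of the replication-independent variants, the H2A.Z genes were abundant. H2AFZ had 1395, 1347, 2642 and 1821 in si2, 724, 1327 and 1387 in si1, and 862, 2627, 2425 and 2404 in siSCR. The si1 libraries lay below siSCR 2 to 4 and around siSCR 1, and si2 3 alone reached the level of siSCR 2 to 4. Against siSCR the log2 fold change was -0.14 ± 0.37 in si2 (adjusted p = 0.879) and -0.79 ± 0.44 in si1 (adjusted p = 0.303), and without siSCR 1 it was -0.52 ± 0.24 in si2, not called, and fell by 1.17 ± 0.28 in si1, called.
H2AFV, the other H2A.Z gene, had 1072, 1173, 767 and 1094 in si2, 635, 762 and 1157 in si1, and 732, 2207, 2031 and 2084 in siSCR. Every siRNA library lay below siSCR 2 to 4. Against siSCR its log2 fold change was -0.67 ± 0.34 in si2 (adjusted p = 0.313) and -0.97 ± 0.43 in si1 (adjusted p = 0.216), and without siSCR 1 it fell by 1.05 ± 0.18 in si2 and fell by 1.35 ± 0.25 in si1, both called.

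H2AFX, for the H2A variant phosphorylated at DNA breaks, is counted as a variant by its name but carries the stem-loop shown above. It had 54.8, 51.4, 55.7 and 97.4 in si2, 25.5, 65.2 and 82.7 in si1, and 30.2, 151, 184 and 196 in siSCR. All siRNA libraries lay below siSCR 2 to 4, and siSCR 1 was near the lowest si1 library. The same order to siSCR 2 to 4 held for the replication-dependent HIST1H4C and HIST2H2AC and for the variants H2AFV and H2AFJ. None of these had a stem-loop match, but the models of HIST1H4C and HIST2H2AC may stop short of it, as said above. Whether the order follows the stem-loop was not tested. Its log2 fold change was -0.85 ± 0.53 in si2 (adjusted p = 0.414) and -1.12 ± 0.70 in si1 (adjusted p = 0.354), and without siSCR 1 it fell by 1.48 ± 0.24 in si2 and fell by 1.75 ± 0.43 in si1, both called.

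H2AFJ, an H2A variant gene, had 15.9, 15.2, 29.4 and 29 in si2, 27.2, 19.4 and 12 in si1, and 57.1, 37.4, 45.8 and 31.6 in siSCR. It was the one variant in which every library of both siRNAs lay below every siSCR library, siSCR 1 included and highest, yet its log2 fold changes of -0.94 ± 0.27 in si2 (adjusted p = 0.0956) and -1.13 ± 0.32 in si1 (adjusted p = 0.0968) did not pass, nor did those of -0.79 ± 0.27 in si2 and -0.99 ± 0.31 in si1 without siSCR 1. H1FX, a linker variant, had 276, 296, 183 and 318 in si2, 349, 207 and 296 in si1, and 321, 330.1, 353 and 496 in siSCR. The si2 libraries lay below all siSCR libraries, by little for si2 4, and si1 overlapped siSCR, with log2 fold changes of -0.49 ± 0.22 in si2 (adjusted p = 0.257) and -0.41 ± 0.25 in si1 (adjusted p = 0.345), or -0.56 ± 0.23 in si2 and -0.48 ± 0.27 in si1 without siSCR 1. The antisense RNA H1FX-AS1 covers 22.9% of the exon bases of H1FX from the other strand and had 8.15 or below in every library.

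MacroH2A, an H2A variant with a large added domain, is encoded by H2AFY and H2AFY2. H2AFY had 808, 691, 834 and 699.7 in si2, 556, 745 and 672 in si1, and 603, 828, 725 and 715 in siSCR, and the groups overlapped, siSCR 1 included. Its log2 fold changes were 0.08 ± 0.16 in si2 (95% interval -0.27 to 0.44) and -0.13 ± 0.19 in si1 (95% interval -0.58 to 0.32), or 0.0027 ± 0.14 in si2 and -0.21 ± 0.19 in si1 without siSCR 1. H2AFY2 had 12.4, 20.9, 28.4 and 24.9 in si2, 29, 105 and 40.6 in si1, and 26.0, 28.8, 44.5 and 64.2 in siSCR. The si2 libraries lay below the si1 libraries, and the high si1 2 sets the si1 mean, with a log2 fold change in si2 against si1 of -1.23 ± 0.45 (adjusted p = 0.137).

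H3.3, the H3 variant of transcribed chromatin, is encoded by H3F3B and H3F3A. H3F3B had 2093, 2034, 2739 and 2165 in si2, 1546, 1796 and 1981 in si1, and 1689, 2746, 2937 and 2632 in siSCR. The si2 libraries lay above all si1 libraries, by little, and both overlapped siSCR, with log2 fold changes of -0.13 ± 0.21 in si2 (95% interval -0.58 to 0.33) and -0.47 ± 0.24 in si1 (95% interval -1.03 to 0.08), or -0.30 ± 0.15 in si2 and -0.65 ± 0.17 in si1 without siSCR 1, not called. H3F3A, which encodes the same protein, had only 22.1, 14.4, 26.3 and 27.0 in si2, 13.2, 20.8 and 16.5 in si1, and 12.6, 20.3, 18.3 and 13.2 in siSCR. It has processed pseudogenes of near-identical sequence, so its level is uncertain.

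Genes that make, bind or deposit histones were set beside them by lists. Of 48 S phase genes, DNA replication factors and cyclins among them, 47 were below 0 in si1 against siSCR with a median log2 fold change of -1.32. In this comparison 4 fell, beside 0.932% of all genes called lower, with CCNE2 (-2.19), POLA2 (-1.94) and RFC3 (-1.88) the largest of these. Without siSCR 1, 29 of 48 fell with a median of -1.58, beside 6.52% of all genes called lower in that fit. Without any other single library 0 did, in fits that called at most 4 of all genes. With the mitochondrial share as covariate 5 of 48 fell with a median of -0.91. That fit called 238 of all 10517 genes in either direction. In si2 against siSCR 45 of 48 were below 0 with a median of -0.44, and CHEK1, a checkpoint kinase, fell (-1.15), beside 1.19% of all genes called lower. Without siSCR 1, 27 of 48 fell in si2 with a median of -0.78, beside 6.68% of all genes, and with the mitochondrial share as covariate 20 did, beside 5.81% of all genes. Without any other single library at most 1 did, beside 88 to 160 of all genes called in such fits.

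In si2 against si1, without the siSCR libraries, 13 of 47 S phase genes rose and none fell, with a median of 0.81, beside 3.71% of all genes called higher in si2. The largest were GINS3 (1.97), CCNE2 (1.93), UHRF1 (1.86) and POLA2 (1.62). With the mitochondrial share as covariate 2 of 47 rose with a median of 0.33 and 19 below 0, beside 1.19% of all genes called higher. With a library left out 2 to 16 rose, in fits that called 120 to 803 of all genes in either direction. The per-library mean log2 level of the list was 6.12, 6.13, 6.2 and 6.10 in si2, 4.85, 5.55 and 5.51 in si1, and 5.57, 6.88, 6.93 and 6.89 in siSCR. The siRNA groups did not overlap in this list, with si2 higher in all libraries, while they overlapped in the replication-dependent histones.

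Replication-dependent minus S phase, the mean log2 level was -1.41 ± 0.46 in si2, -0.30 ± 0.11 in si1 and -0.90 ± 0.42 in siSCR (SD), given as a description with no test. In siSCR it was -0.30 in siSCR 1 and between -1.24 and -0.96 in siSCR 2 to 4.

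Of 32 genes listed for histone mRNA synthesis and processing, 28 were tested in si2 against siSCR with a median of -0.15 and 29 in si1 against siSCR with a median of -0.44, and none was called in either. An unadjusted p under 0.05 was found for 3 in si2, beside 19.6% of all genes, and for 7 in si1, beside 23.9%. Without siSCR 1, 3 of 28 fell in si2 with a median of -0.32 and 6 of 29 fell in si1 with a median of -0.51, beside 6.68% of all genes called lower in si2 and 6.52% in si1. With the mitochondrial share as covariate 2 of 28 fell in si2, beside 5.81% of all genes called lower. In si1 1 of 29 fell with this covariate, in a fit that called 238 of all 10517 genes in either direction. In si2 against si1 3 of 29 rose, with a list median of 0.20 and beside 3.71% of all genes called higher. These were ERI1 (1.33), an exonuclease that trims the histone mRNA end, CDK2 (0.99), the kinase that acts with cyclin E on NPAT, and SLBP (0.89). With the mitochondrial share as covariate 0 of 29 were called, beside 1.6% of all genes. With a library left out 0 to 2 were, in fits that called 120 to 803 of all genes. SLBP had 62.8, 57.8, 75.6 and 79.8 in si2, 33.4, 33.3 and 43.6 in si1, and 51.2, 101, 103 and 81.5 in siSCR, so every si1 library lay below all others.

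Of 38 genes listed as histone chaperones and deposition factors, 35 were tested in si2 against siSCR with a median of -0.22, and none was called. An unadjusted p under 0.05 was found for 5, beside 19.6% of all genes. Without siSCR 1, 13 of 35 fell in si2 with a median of -0.39, beside 6.68% of all genes, and with the mitochondrial share as covariate 12 did, beside 5.81%. In si1 against siSCR 35 were tested with a median of -0.39, and CHAF1B, a subunit of the chromatin assembly factor that loads new H3 and H4 at replication forks, fell (-2.40, adjusted p = 0.0447), beside 0.932% of all genes called lower. Without siSCR 1, 12 fell and 1 rose in si1, beside 6.52% of all genes called lower and 7.01% called higher. Without any other single library none was called, in fits that called at most 4 of all genes. CHAF1B had 27.4, 29.7, 58.8 and 42.5 in si2, 5.27, 6.94 and 9.02 in si1, and 17.6, 59.8, 60.2 and 42.8 in siSCR, so that si1 overlapped neither group.
In si2 against si1 CHAF1B rose (2.29) and ASF1A, an H3-H4 chaperone, fell (-1.03), with a median of 0.23 over 34, beside 3.71% of all genes called higher and 3.02% called lower. With the mitochondrial share as covariate 0 of 34 were called and the median was -0.029. ASF1A had 76.9, 95.5, 72.5 and 71.0 in si2, 180.0, 179 and 129 in si1, and 130.1, 71.6, 58.9 and 91.7 in siSCR, with siSCR 1 the highest of siSCR and within the si1 range.

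In the authors' deposited table for si2 against siSCR, 2 histone genes had an adjusted p under 0.05, both lower in si2: HIST1H1C (log2 fold change -0.73, adjusted p = 0.0383) and HIST1H1D (-0.93, adjusted p = 0.0346), beside 0.738% of all 33079 rows in the authors' deposited table. In the authors' deposited table for si1 against siSCR, 3 did, all lower in si1: HIST1H1C (-0.86, adjusted p = 0.0245), HIST2H2AC (-1.15, adjusted p = 0.0187) and H2AFV (-0.92, adjusted p = 0.0353), beside 1.71% of all rows. These shares stand for 244 rows called lower in si2 and 565 in si1. All rows include those without a read, while every member had one. Only 17626 rows had a read in some library, and among those the shares are higher. HIST1H2AC stood at 1.15 with an adjusted p of 0.0506 in si1 in the authors' deposited table. None of these genes was called by limma on the libraries of the comparison. HIST1H2AC was called in si1 with all 11 libraries in 1 fit, which called 1112 of 10760 genes. HIST1H1C, HIST1H1D, HIST2H2AC and H2AFV were called in the same comparisons without siSCR 1.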

How the data were processed

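RNA sequencing libraries of 769-P cells were taken as the authors deposited them, 1 table per siRNA with shared siSCR columns. The tools were cutadapt for trimming, FastQC, STAR on GRCh38, HTSeq for counting and DESeq2 for normalization, per the submitters' processing notes. Tool versions, strandedness and RNA selection are not given in the sources used here. Library columns hold log2 values of the normalized count plus 1 in the files the authors deposited: undone, 100% of values lay within 0.01 of a whole number of reads, which gives the depths. Fold changes on the log2 scale with raw and adjusted p-values, and a mean signal per gene, were also deposited, and are used only where named. The row that names no gene was left out.

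Genes were kept at a normalized count of 10 or more in a number of libraries equal to the size of the smaller group. They were tested with limma 3.58.1 in R 4.3.3 on log2(normalized count + 1), each comparison on its own libraries, two-sided. A call needed an adjusted p (Benjamini-Hochberg, over all genes tested) under 0.05. The fit was tested on simulated data. A fold change on this scale understates the change of low genes. Errors of fold changes are SE, those of levels SD. Exon bases and overlaps came from GENCODE 29, promoters from RefSeq. The named genes were, per replication-dependent type, the 3 of highest level, every tested variant and every called histone gene; HIST2H2AB, HIST1H1B and HIST1H2BF were added after their values were seen, as were the values of SLBP, CHAF1B, ASF1A and COL1A1 by library. The members, lists and tests were chosen with earlier results of these data known. The lists were S phase, histone mRNA synthesis and processing, chaperones and deposition, and markers of the line and of other cells; sets of cluster genes with polyadenylated transcripts and of germline histones only guided the naming. The value of 1 S phase gene is not reported here. The alternatives are in the closing section, and the count test that had been planned was not run since the deposited unit is log2.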

Additional observations from a re-analysis of the deposited data

Results flagged for a closer look

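In all, 54 groups of 4 libraries were examined for a library far from the others, and 8 held one. The groups were each named gene in si2 and siSCR, and the class means. For independent groups of normally distributed values the cut-off flags about 1 in 20. These groups share libraries and genes, so their number cannot be compared with that rate. In siSCR, siSCR 1 stood far below the others for H2AFZ (862, against 2404 to 2627), for H2AFV (732, against 2031 to 2207) and for the mean log2 level of the replication-independent genes (7.43, against 8.20 to 8.29). In si2, si2 2 stood below the others for HIST1H2AE (7.22, against 9.45 to 9.85) and above them for HIST1H2BD (28.1, against 14.7 to 15.9), and si2 4 stood above them for H2AFX (97.4, against 51.4 to 55.7). The others were genes near 0, HIST1H3A in si2 3 (3.15, against at most 0.518) and HIST1H3C in si2 2 (0.803, the others at 0). A single value above 0 beside values at 0, as for HIST1H3C, is always flagged.

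The siRNAs differed from each other, in the test of that difference, for HIST1H2AC (log2 fold change in si2 against si1 of -1.63, lower in 4 of 4 si2 libraries than in any si1 library), HIST1H2BD (-1.43, likewise 4 of 4) and HIST1H2BG (-1.09, likewise 4 of 4). HIST1H2BG passed the filter only through its si1 libraries.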

How the results depend on the processing

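Of 995 recomputed fold changes of named genes under the alternatives, 915 kept direction and side of the threshold, 27 gained and 21 lost a call, and 32 reversed. In si1 against siSCR, 0 histone genes were called, against 1 with all 11 libraries and 1 with voom on recovered reads (chosen after seeing the data), and 0 to 10 with a library left out. There the fit of all 11 libraries called 1112 of 10760 genes and the fit with voom 582 of 10517. In si2 against siSCR, 0 histone genes were called, against 8 with the mitochondrial share as covariate and 0 to 8 with a library left out. The fit with this covariate called 1343 of 10249 genes. In si2 against si1, 3 histone genes were called, against 1 at a minimum of 50, 0 with all 11 libraries, 1 with the mitochondrial share and 1 to 4 with a library left out. The fit at a minimum of 50 called 934 of 7145 genes, that of all 11 libraries 761 of 10760 and that with the share 167 of 10448. All-gene counts with a library left out were 0 to 1399 in si1 against siSCR, 88 to 1496 in si2 against siSCR and 120 to 803 in si2 against si1. No replicate pairing was assumed: same-numbered libraries correlated by 0.402, 0.093 and 0.147 in si1 and siSCR and by -0.032 to 0.176 in si2 and siSCR, and not every library correlated best with its own number. With the replicate block 0 histone genes were called in each comparison, and all-gene counts were 0 in si1 against siSCR, 175 in si2 against siSCR and 6 in si2 against si1; the cause was not tested. The planned edgeR alternative was not run, as the deposited unit is log2.

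Class values that moved beyond the spread were the replication-dependent minus replication-independent score at a minimum of 50 (0.42 in si1 against siSCR and -0.80 in si2 against si1) and with a pseudocount of 5 (-0.014 in si1 against siSCR). The replication-independent median was -0.14 without a filter in si2 against siSCR and -0.13 with the mitochondrial share in si2 against si1. The replication-dependent median in si2 against si1 was 0.057 without a filter and -0.72 to -0.060 with a library left out.

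No gene that reversed was called in that comparison. In si1 against siSCR these were, with the mitochondrial share, HIST1H2AE (0.21), HIST1H2BG (-0.12) and HIST1H4H (-0.10), and with the replicate block HIST1H4H (-0.024) and H3F3A (-0.015). With a library left out, HIST1H2AE ranged from -0.53 to 0.16, HIST1H4H from -0.13 to 0.19, H2AFY2 from -0.16 to 0.76 and H3F3A from -0.092 to 0.22. In si2 against siSCR, with a library left out, HIST1H2AC ranged from -0.12 to 0.76 and H2AFZ from -0.52 to 0.018. In si2 against si1, with the mitochondrial share, they were HIST1H1D (-1.14), H2AFZ (-0.20), H2AFV (-0.000890), H2AFY (-0.13), H1FX (0.50), H2AFX (-0.96) and H3F3A (-0.16). The share did not overlap between si2 and si1, so it cannot be told apart from the siRNA in that fit. With a library left out, HIST1H1C ranged from -0.083 to 0.17, HIST1H4C from -0.33 to 0.0070, H1FX from -0.29 to 0.095, H2AFX from -0.23 to 0.60 and H2AFJ from -0.10 to 0.46. The cause of each was not tested. Depth limits genes with few reads, since 31 of 54 were tested in no comparison.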
